A study of Mus musculus with 4 samples.

Results

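The comparison described here sets macrophages sorted from normal spleen against macrophages sorted from normal bone marrow of C57BL/6J mice, labelled as 6 to 8 weeks old. Of the sorting times in the treatment protocol, days 0 and 21, the normal samples are taken as those of day 0. It was chosen by organ alone, and it holds 2 of the 4 RNA sequencing libraries of the study, 1 for each organ. Of the 17008 genes with a uniquely mapped read in any library, 16291 had one in either of this pair. The remaining libraries hold macrophages sorted from the same organs at day 21 after GFP-labelled cells of a T cell acute lymphoblastic leukaemia (T-ALL) had been given to mice of that strain and age without irradiation. They form the only other organ pair of the study, and they share no library with the normal pair. The labels call all 4 samples macrophages. The sources used here do not give the markers of the sort, the number and sex of the mice, or whether mice were pooled. The study set macrophages in leukaemia against those of healthy animals, and the normal pair sets 1 library of each organ side by side without leukaemia.

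Macrophages of the spleen are known for clearing aged red cells in the red pulp, where haem is broken down and its iron is stored or exported, and for taking up blood-borne particles in the marginal zone. Macrophages of the bone marrow sit in erythroblastic islands and beside stem cells, in an organ that also makes granulocytes. Both populations depend on signals through the M-CSF receptor, carry the surface protein F4/80 (the product of Emr1), and present antigen on MHC class II molecules.

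Values are in CPM, a gene's uniquely mapped reads scaled to a common library total. The normal bone marrow library had 9809676 reads and the normal spleen library 8979385, so that 1 read was worth 0.102 and 0.111 CPM, and 15290 and 15321 genes had a read. A gene counted as measured when the higher library of the pair had 10 CPM or more, and as higher or lower when the pair differed by at least 2-fold on the log2(CPM + 1) scale. Log2 folds are on that scale, spleen minus bone marrow, so the change of low genes comes out too small. A value followed by -fold is a plain ratio of CPM, and the range in parentheses behind it is the exact binomial 95% interval from the 2 read counts. Such ranges cover counting error only, and PCR copies of 1 molecule count as separate reads. With 1 library in each group there is no replicate check, no test and no p-value, and a difference between organs cannot be told apart from one between these samples. In bulk RNA of this kind, fewer cells of a type and less RNA per cell cannot be told apart either.

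The spleen library carried far more RNA of resident macrophages and of MHC class II genes, and the bone marrow library far more RNA of granulocyte precursors and of dividing cells. Of 10072 measured genes, 1600 (15.9%) were higher in spleen and 1436 (14.3%) were lower, with a median log2 fold over all measured genes of -0.05. Differences of 16-fold or more were found for 124 genes higher in spleen (1.23% of those measured) and 93 genes lower (0.923%). By read share, the most abundant transcript of the spleen library was Cd74, the invariant chain that guides MHC class II molecules, with 1.10% of all reads, and H2-Ab1, H2-Aa, H2-Eb1, Psap and Ctsb were also among its 10 most abundant. In bone marrow the leading transcripts were those of neutrophil genes, with 1.02% of all reads for Ngp, 0.995% for Mpo and 0.951% for S100a9. The elongation factor Eef1a1 was among the 10 most abundant in both, at 8112 CPM in bone marrow and 8486 CPM in spleen. If folds are set against the median of 16 macrophage core genes (2.70, described below) in place of the library total, the median of all genes moves from -0.05 to -2.75 and the split becomes 162 higher and 9167 lower. A list of genes with a median above 0 but under 2.70 on the library scale then lies below the core genes. For such lists the value against the core median stands beside the value on the library scale.

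**Figure D1:**
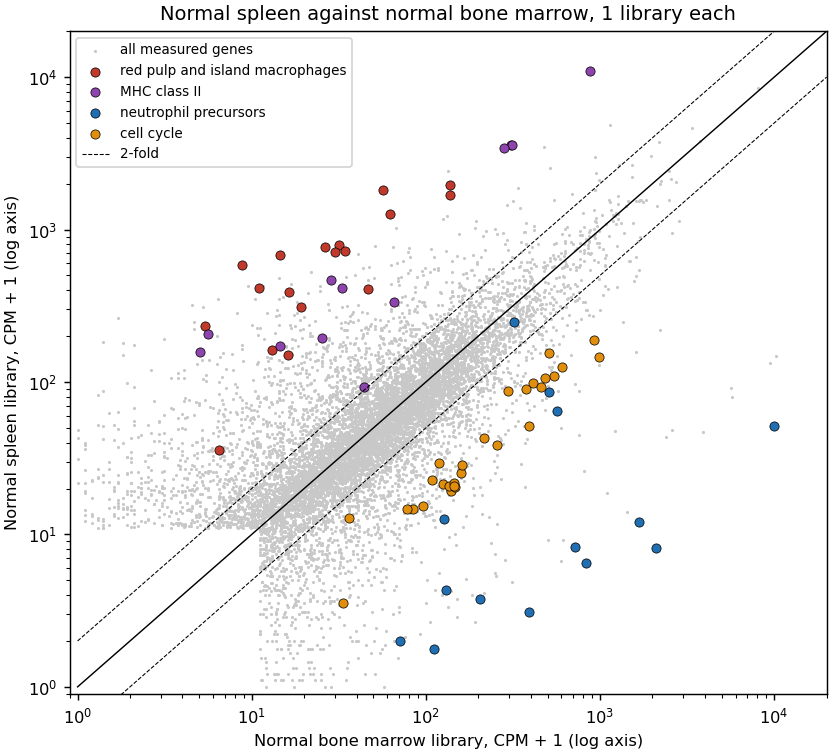
Levels of the 10072 measured genes as CPM + 1 in the normal bone marrow library (horizontal log axis) and the normal spleen library (vertical log axis), with 1 library per axis and dashed lines at a 2-fold difference. All 18 red pulp and island macrophage genes and all 12 MHC class II genes lie above the upper dashed line, all 28 cell cycle genes lie below the lower one, and neutrophil precursor genes reach the far lower right.

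Promoters are shown for a few genes of the groups at either end of the comparison, because the members of each group moved together. Promoter sequences are from RefSeq (GRCm38.p6) and end just before the annotated start. MHC class II genes are known to be switched on by the coactivator CIITA, which is recruited to a conserved promoter module whose last element is a CCAAT box, the reverse complement of ATTGG. Capitals mark GATTGG or its reverse complement CCAATC in the last 120 bases before the start of 3 class II genes: H2-Aa on the minus strand at chr17:34287824-34287943, H2-Eb1 on the plus strand at chr17:34305747-34305866 and H2-DMb1 on the plus strand at chr17:34153071-34153190.
H2-Aa: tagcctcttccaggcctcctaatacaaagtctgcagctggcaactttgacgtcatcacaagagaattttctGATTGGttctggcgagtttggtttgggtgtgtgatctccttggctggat
H2-Eb1: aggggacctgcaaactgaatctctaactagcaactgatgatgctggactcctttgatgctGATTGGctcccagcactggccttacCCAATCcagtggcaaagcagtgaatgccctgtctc
H2-DMb1: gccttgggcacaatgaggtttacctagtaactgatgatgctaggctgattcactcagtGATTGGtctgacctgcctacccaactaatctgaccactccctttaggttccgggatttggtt
GATTGG begins 49 bases before the start in H2-Aa, 60 in H2-Eb1 and 62 in H2-DMb1, and H2-Eb1 holds CCAATC as well, 35 bases before the start. H2-Eb1 and H2-DMb1 also share the run aactgatgatgct, 13 bases long, which begins 89 and 92 bases before their starts. Among the 12 genes of the MHC class II pathway followed here, 9 had a promoter in the table. All 9, Rfx5 among them, held GATTGG on either strand within 250 bases, as did 14.6% of all 32851 promoters in the table. Here and below, listed genes count when any promoter of theirs holds the motif, while the shares are per promoter. None of the 9 held GAGGAAG, a purine-rich run around the GGAA core that ETS factors such as PU.1 bind, which 10.6% of all promoters held on either strand.

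The promoters of the primary granule enzymes, the genes with the lowest log2 folds, carried the other motif. Capitals mark GAGGAAG in the last 250 bases before the start of Mpo (plus strand, chr11:87793534-87793783), Elane (plus strand, chr10:79886062-79886311), Prtn3 (plus strand, chr10:79879417-79879666) and Ctsg (minus strand, chr14:56102575-56102824).
Mpo: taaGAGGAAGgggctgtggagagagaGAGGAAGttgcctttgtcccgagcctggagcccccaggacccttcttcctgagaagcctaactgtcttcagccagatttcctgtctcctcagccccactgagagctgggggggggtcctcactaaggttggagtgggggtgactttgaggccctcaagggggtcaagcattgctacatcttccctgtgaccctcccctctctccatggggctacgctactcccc
Elane: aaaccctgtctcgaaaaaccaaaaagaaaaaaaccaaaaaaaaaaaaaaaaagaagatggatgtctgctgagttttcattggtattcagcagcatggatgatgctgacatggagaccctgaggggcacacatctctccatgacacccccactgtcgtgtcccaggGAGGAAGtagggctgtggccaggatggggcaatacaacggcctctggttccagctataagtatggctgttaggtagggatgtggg
Prtn3: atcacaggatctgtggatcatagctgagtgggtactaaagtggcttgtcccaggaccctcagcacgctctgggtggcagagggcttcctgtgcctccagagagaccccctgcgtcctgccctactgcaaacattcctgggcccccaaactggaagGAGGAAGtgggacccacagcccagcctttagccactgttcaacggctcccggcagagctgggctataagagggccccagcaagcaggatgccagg
Ctsg: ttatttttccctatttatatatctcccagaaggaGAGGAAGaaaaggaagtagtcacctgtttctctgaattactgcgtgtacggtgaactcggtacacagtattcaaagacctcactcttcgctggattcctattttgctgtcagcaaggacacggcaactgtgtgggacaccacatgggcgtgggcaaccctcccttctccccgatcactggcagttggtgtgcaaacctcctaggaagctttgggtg
Mpo held 2 copies, beginning 247 and 224 bases before the start. The copies began 85 bases before the start in Elane, 95 in Prtn3 and 216 in Ctsg. Of the 14 neutrophil precursor genes, 11 had a promoter in the table. GAGGAAG was found in 6 of these 11, namely the 4 shown with Clec5a and Hk3, and GATTGG in 1, Fcnb. Both motifs were picked after these letters had been seen. A match describes the letters of the sequence and is not evidence that a factor binds there.

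The macrophage core genes were mostly higher in spleen. Of 16 such genes, all measured, 12 were higher and 2 lower, against 15.9% and 14.3% of all measured genes, and their median log2 fold was 2.70. Csf1r, which encodes the receptor for the macrophage growth factor M-CSF, was at 134 CPM in bone marrow and 2405 CPM in spleen, 18.0-fold (17.0 to 19.0) higher in spleen. Emr1 was at 39.7 and 695 CPM in the same order, 17.5-fold (15.8 to 19.5) higher. Mertk, a receptor for dying cells, was at 3.67 and 248 CPM, 67.6-fold (48.7 to 96.8) higher, the largest fold of the list. The allograft inflammatory factor gene Aif1 differed by 14.9-fold (11.3 to 20.1) and the protease gene Ctss by 9.36-fold (8.82 to 9.94). The lysosomal glycoprotein gene Cd68 was at 35.8 CPM in bone marrow and 269 CPM in spleen.

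The core members lower in spleen are known from granulocytes and monocytes too. Lyz2, which encodes lysozyme, was at 2584 CPM in bone marrow and 942 CPM in spleen, 2.74-fold (2.68 to 2.81) higher in bone marrow. Itgam, the integrin chain CD11b, was at 729 and 217 CPM, 3.36-fold (3.20 to 3.53) higher in bone marrow. Lyz2 alone made up 2584 of the 4680 CPM that the 16 core genes summed to in bone marrow, so that the summed share of the list differed less than its members did: 0.468% of reads in bone marrow (Wilson 95% interval 0.464 to 0.472) and 0.904% in spleen (0.898 to 0.911). In bone marrow, genes of late granules and mature neutrophils took 3.99% of reads and genes of neutrophil precursors 1.77%, both above the core macrophage genes. Macrophage genes were thus present in both libraries, as the label says, but in the bone marrow library granulocyte genes took more reads. Both libraries are called by their organ in what follows.

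**Figure D2:**
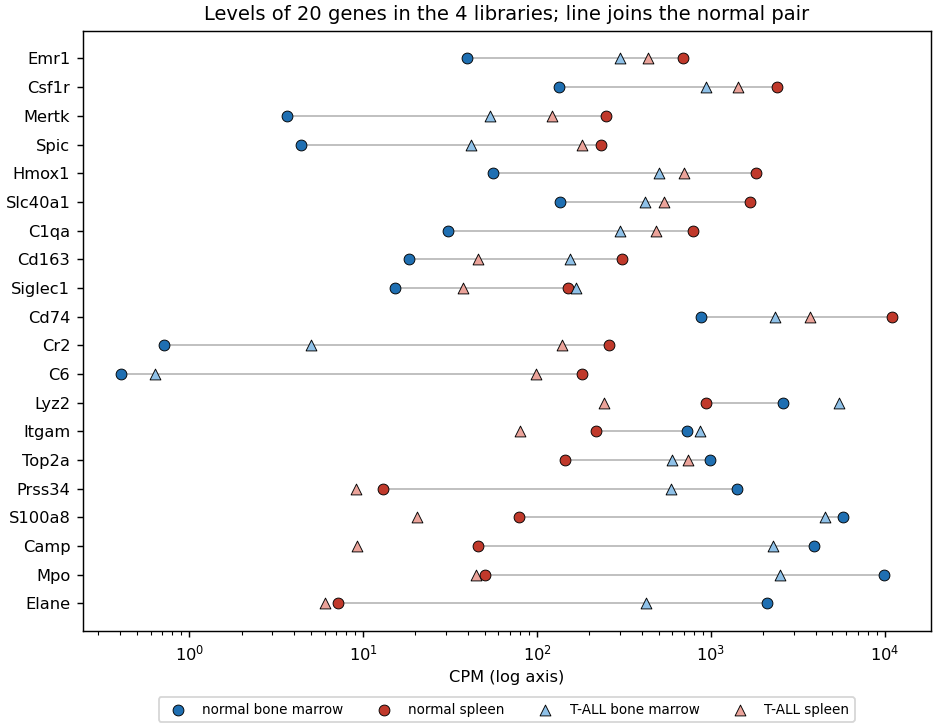
Levels of 20 genes (CPM, log axis) in the 4 libraries, 1 library per symbol, with a line between the normal bone marrow (dark blue circle) and normal spleen (dark red circle) values and triangles for the T-ALL libraries. Csf1r runs from 134 to 2405 CPM between the normal organs and Mpo from 9947 down to 50.4 CPM, and for Cd163 and Siglec1 the order of the organs is reversed in the T-ALL pair.

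Genes marking the macrophages of red pulp and erythroblastic islands were without exception higher in spleen. All 18 were measured and all 18 were higher, with log2 folds from 2.47 to 6.07 and a median of 4.47. Their summed share of reads was 0.0656% in bone marrow and 1.31% in spleen. Spic, the transcription factor on which red pulp macrophages depend, was at 4.38 CPM in bone marrow and 233 CPM in spleen, 53.1-fold (39.3 to 73.7) higher. Itgad, the integrin chain CD11d, was at 7.75 and 588 CPM, 76.0-fold (60.6 to 96.6) higher. Fcna, a ficolin that binds microbial sugars, was 50.5-fold (42.5 to 60.5) higher and Cd5l, a secreted scavenger protein of tissue macrophages, 41.5-fold (34.0 to 51.3) higher. Vcam1, an adhesion molecule of island macrophages, was at 137 and 1954 CPM, so that it was well above the 10 CPM minimum in both organs. When folds were set against the core median, 13 of the 18 were higher and none lower.

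Marginal zone markers were sparse. Of 6, only Marco, Nr1h3, Timd4 and Siglec1 were measured, and all 4 were higher in spleen. Marco, a scavenger receptor for bacteria, had 1 read in bone marrow and 336 in spleen (37.4 CPM). The ratio of 367-fold (65.4 to 14541) has a wide interval, since it rests on a count of 1. The lectin gene Cd209b, a marker of marginal zone macrophages proper, reached only 2.67 CPM in spleen against 0.102 CPM in bone marrow, under the minimum.

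Most genes of haem and iron handling were higher in spleen on the library scale. Of 20 listed, 19 were measured, 11 were higher and 2 lower in spleen, with a median of 1.46 on the library scale and -1.24 against the core median. Hmox1, haem oxygenase, which opens the haem ring, was at 55.8 CPM in bone marrow and 1823 CPM in spleen, 32.7-fold (30.0 to 35.7) higher. Slc40a1, ferroportin, the exporter of iron, was at 136 and 1674 CPM, 12.3-fold (11.7 to 13.1) higher. Slc11a1, which moves iron out of phagosomes, was 19.4-fold (16.6 to 22.8) higher, and Cd163, the scavenger receptor for haemoglobin, was at 18.2 and 309 CPM, 16.9-fold (14.6 to 19.8) higher. Trf, transferrin, was 9.37-fold (8.84 to 9.93) higher and Hfe, a regulator of iron sensing, 9.39-fold (8.13 to 10.9) higher. The members lower in spleen were Hp, haptoglobin, which is also a granulocyte product, at 757 and 43.9 CPM, and the ferrireductase gene Steap3 at 37.4 and 9.91 CPM. The haem-sensing repressor gene Bach1 was at 98.8 and 111 CPM, a log2 fold of 0.16.

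Complement genes were mostly higher in spleen, with C3 as the main exception. Of 11 measured of 15, 7 were higher and 2 lower in spleen, with a median of 3.94. C1qa, C1qb and C1qc, the chains of the recognition protein C1q, lay close together, with 25.6-fold (22.8 to 28.8) for C1qa, 21.5-fold (19.2 to 24.1) for C1qb and 29.9-fold (26.4 to 34.1) for C1qc. C6, a component of the membrane attack complex, had 4 reads (0.408 CPM) in bone marrow and 1623 reads (181 CPM) in spleen, 443-fold (173 to 1629) higher. C2, of the classical pathway, was at 0.714 and 62.4 CPM, and Cfp, properdin, at 49.7 and 779 CPM. The exceptions were C3, the central component, at 1614 CPM in bone marrow and 156 CPM in spleen, 10.3-fold (9.78 to 10.9) higher in bone marrow, and the C5a receptor gene C5ar1, 4.73-fold (3.70 to 6.12) higher in bone marrow.

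Receptors for dying cells and modified lipoproteins were higher in spleen in 11 of 15 measured of 20, and 2 were lower, with a median of 3.49. Besides Mertk, its relative Axl was at 61.3 CPM in bone marrow and 1257 CPM in spleen, 20.5-fold (18.9 to 22.3) higher. Timd4 and Havcr2, which bind phosphatidylserine, were 18.2-fold (11.7 to 29.8) and 17.4-fold (13.6 to 22.6) higher. Stab2, a hyaluronan and phosphatidylserine receptor, was 29.3-fold (21.8 to 40.2) higher and Lrp1, a receptor of many ligands, 12.1-fold (11.1 to 13.1) higher. The 2 members lower in spleen were Cd93, at 231 and 21.7 CPM, which progenitors also carry, and the bridging protein gene Mfge8, at 32.0 and 14.7 CPM. Gas6, a ligand of Mertk and Axl, reached 9.91 CPM in spleen and 3.57 in bone marrow, under the minimum.

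Genes of lipid handling and of the liver X receptor (LXR) pathway were higher in spleen in 11 of 15 and lower in none, with a median of 2.27 on the library scale and -0.43 against the core median. Nr1h3, LXR alpha, was at 5.81 CPM in bone marrow and 154 CPM in spleen, 26.5-fold (20.3 to 35.2) higher, and its partner gene Rxra was 10.6-fold (9.09 to 12.4) higher. Scd1, a fatty acid desaturase, was 19.1-fold (16.6 to 22.2) higher, and Abca1, a cholesterol exporter, was at 15.1 and 122 CPM. Nr1h2, LXR beta, was at 103 and 105 CPM, a log2 fold of 0.02, so that the pair of LXR genes differed in their organ pattern. Of 15 genes for cathepsins and legumain, 14 were measured, 11 were higher and 1 lower, with a median of 1.63 (-1.07 against the core median). Lgmn, legumain, was 14.5-fold (12.97 to 16.3) higher and Ctsb 7.39-fold (7.16 to 7.62) higher, while the exception, Ctsg, is a granule enzyme of neutrophil precursors. Psap, the precursor of lysosomal saposins, was named for its read share and was at 1139 and 4841 CPM.

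All 12 genes of the MHC class II pathway were higher in spleen, with log2 folds from 1.07 to 5.20 and a median of 3.60. Against the core median, 3 of the 12 were higher and the median was 0.90. The list took 0.198% of reads in bone marrow and 2.36% in spleen, the largest share of any list there but the ribosomal proteins. Cd74 was at 871 CPM in bone marrow and 11002 CPM in spleen, 12.6-fold (12.3 to 12.9) higher. The chains of the classical molecules differed by close factors, 11.6-fold (11.2 to 12.1) for H2-Aa, 11.6-fold (11.2 to 12.02) for H2-Ab1 and 12.3-fold (11.8 to 12.8) for H2-Eb1. Ciita, the coactivator, was at 27.5 and 466 CPM, 16.9-fold (15.0 to 19.2) higher. H2-Ob, which with H2-Oa forms an inhibitor of peptide loading known from B cells, was 12.9-fold (11.5 to 14.6) higher, and H2-Oa was 12.8-fold (10.7 to 15.4) higher. The largest folds were those of H2-Eb2, at 4.59 and 205 CPM, and H2-DMb2, at 4.08 and 157 CPM. H2 genes have near-identical relatives, so their unique reads are uncertain. MHC class I genes moved less, with 5 of 13 higher, none lower and a median of 0.80, or -1.90 against the core median. H2-K1 was at 949.7 and 2349 CPM.

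Markers of other antigen-presenting cells were also higher in spleen, and their part in the class II difference was not tested. Of 13 measured B cell genes of 15, 12 were higher and none lower (median 2.75, or 0.05 against the core median), none of the 13 was at 0 reads in either library, and the list summed to 439.7 CPM in bone marrow and 3920.1 CPM in spleen. Cr2, complement receptor 2 of B cells and follicular dendritic cells, had the largest log2 fold of all measured genes, at 0.714 CPM in bone marrow and 261 CPM in spleen, 365-fold (177 to 909.7) higher. Fcer2a, the low-affinity IgE receptor, was 60.5-fold (43.5 to 86.6) higher and Ms4a1, CD20, 39.9-fold (32.9 to 49.0) higher. Cd22, an inhibitory B cell receptor, was at 42.3 and 559.9 CPM. Of 16 measured dendritic cell genes of 17, 14 were higher and 1 lower (median 2.81, 0.11 against the core median), with sums of 1203 and 2800.2 CPM. Ciita is counted on this list as well as on the MHC class II list. Zbtb46, a transcription factor of conventional dendritic cells, was at 2.14 and 45.2 CPM, Itgax, CD11c, at 46.1 and 567 CPM, and Ccr7, their homing receptor, at 10.1 and 225 CPM. Clec4a4, a lectin of a dendritic cell subset, had 1 read in bone marrow and 319 in spleen, a ratio of 348-fold (62.1 to 13808). Cd24a, which B cell precursors also express, was the member lower in spleen, at 781 and 258 CPM.

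T cell genes were higher in spleen in 17 of 19 measured of 20, with none lower, a median of 2.99 (0.29 against the core median) and sums of 267 CPM in bone marrow and 1647 CPM in spleen. Cd4 was at 17.9 and 255 CPM, Cd8b1 at 3.16 and 57.2 CPM, Cd5 at 3.26 and 57.6 CPM, and the T-lineage factor Bcl11b at 4.79 and 67.2 CPM. No member of the T cell list was at 0 reads in either library. Among plasma cell genes 5 of 7 were higher (median 1.75, or -0.95 against the core median), with Igj, the joining chain of secreted antibodies, 8.25-fold (7.66 to 8.90) higher. Of 8 genes of plasmacytoid dendritic cells, 3 were higher and none lower, and of 11 genes of natural killer and cytotoxic cells, 4 were higher and 1 was lower, Nkg7, at 209.9 and 44.1 CPM. Their medians were 0.75 and 0.54, or -1.95 and -2.16 against the core median.

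**Figure D3:**
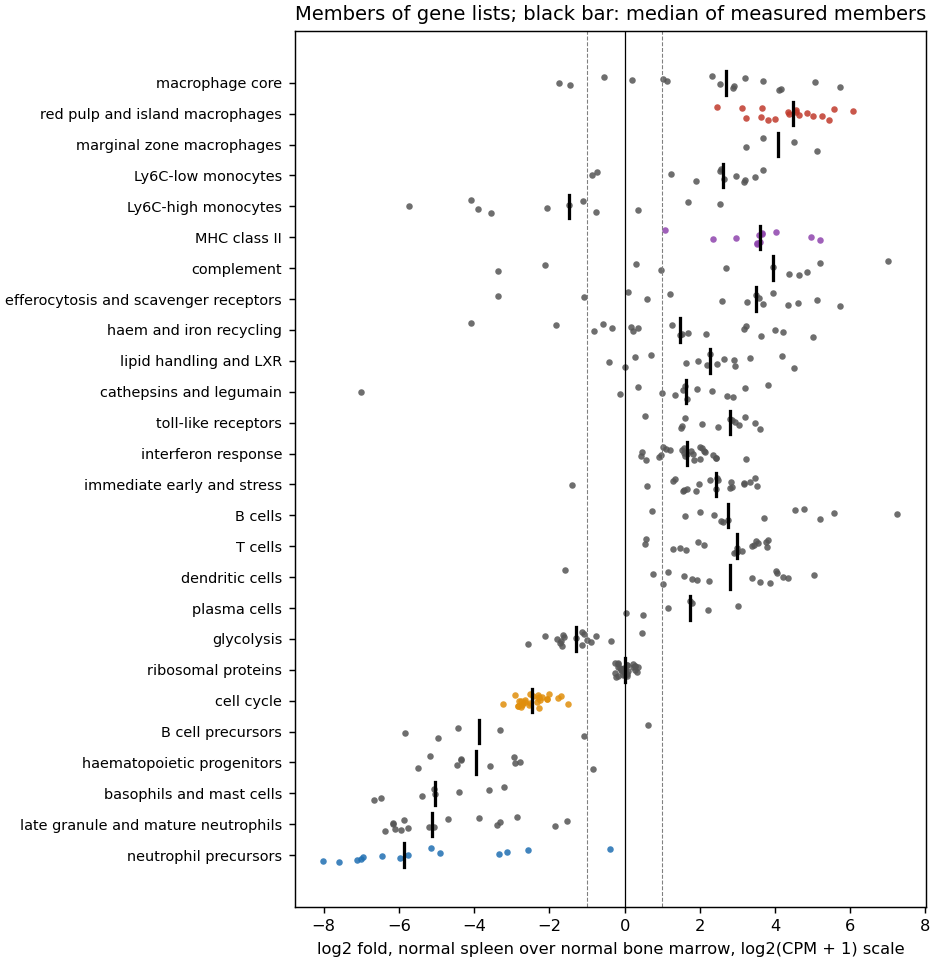
Log2 folds of normal spleen over normal bone marrow, on the log2(CPM + 1) scale, for the measured members of 26 gene lists, with 1 point per gene, a black bar at each list's median and dashed lines at 2-fold. Medians run from 4.47 for red pulp and island macrophage genes to -5.86 for neutrophil precursor genes, and ribosomal protein genes lie at 0.00.

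The subsets of monocytes, the circulating relatives of macrophages, pointed in opposite directions. Genes of Ly6C-high monocytes, the classical subset that leaves the bone marrow, were lower in spleen in 7 of 11 measured of 13 and higher in 2, with a median of -1.47. The 2 were Cd14, the endotoxin co-receptor, at 14.1 and 85.8 CPM, and the transcription factor gene Irf8, at 139.9 and 453 CPM. Genes of Ly6C-low monocytes, the patrolling subset, were higher in 10 of 12 and lower in none, with a median of 2.61 on the library scale and -0.09 against the core median. Ly6c2 was at 269.8 CPM in bone marrow and 21.9 CPM in spleen, 12.3-fold (10.6 to 14.3) higher in bone marrow. F13a1, coagulation factor XIII A, was 18.7-fold (13.1 to 27.6) higher in bone marrow, and Chi3l3, a chitinase-like protein that neutrophil precursors also make, was at 2582 and 47.8 CPM. Nr4a1, the nuclear receptor that Ly6C-low monocytes require, was at 78.2 and 711 CPM, 9.09-fold (8.43 to 9.81) higher in spleen. Nr4a1 is also counted on the list of immediate early and stress genes described below. Ace, angiotensin-converting enzyme, was 9.40-fold (8.64 to 10.2) higher, Emr4 13.1-fold (11.8 to 14.6) higher and Cd300e 11.9-fold (9.84 to 14.6) higher in spleen. The fractalkine receptor gene Cx3cr1 was at 35.5 and 136 CPM, while Ccr2, the receptor by which classical monocytes leave the marrow, was at 117 and 68.3 CPM and did not reach 2-fold.

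Pattern recognition genes leaned to spleen. Of 14 Toll-like receptor genes 13 were measured and 12 were higher, with none lower and a median of 2.79 (0.09 against the core median). Tlr1 was at 9.79 CPM in bone marrow and 131 CPM in spleen, 13.3-fold (10.8 to 16.6) higher, and Tlr7 and Tlr13, sensors of single-stranded and ribosomal RNA, were 11.5-fold (9.97 to 13.4) and 9.71-fold (8.29 to 11.4) higher. The adaptor gene Myd88 was at 72.2 and 106 CPM, a log2 fold of 0.55. Among C-type lectins, 8 of 13 measured of 17 were higher and 3 lower, with a median of 1.79 (-0.91 against the core median). Clec4n, dectin-2, a receptor for fungal mannans, was at 1.12 and 174 CPM, 155-fold (86.3 to 311) higher in spleen, and the mannose receptor gene Mrc1 at 29.2 and 711 CPM. The lectins lower in spleen were Clec5a, of neutrophil precursors, at 129 and 3.34 CPM, Mgl2, a galactose-type lectin, at 24.7 and 1.11 CPM, and Clec12a, an inhibitory receptor of granulocytes and monocytes, at 368 and 113 CPM. Of 8 measured Fc receptor genes of 10, 5 were higher and 1, the mast cell and basophil gene Fcer1a, was lower, with a median of 1.68 (-1.02 against the core median). Fcgrt, the neonatal Fc receptor that recycles antibody, was 16.4-fold (13.7 to 19.9) higher.

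Genes induced by interferon were higher in spleen in 20 of 25 and lower in none, at a modest size, with a median of 1.65 (-1.05 against the core median). Ifit3, an antiviral effector, was at 4.18 CPM in bone marrow and 47.7 CPM in spleen, the largest fold of the list. Immediate early and stress genes, which respond within minutes to signals and to tissue dissociation, were higher in 19 of 21 measured of 23 and lower in 1, with a median of 2.42 (-0.28 against the core median). Their summed share of reads was 0.254% in bone marrow and 1.00% in spleen. Egr1 was at 106 and 743 CPM, Klf2 at 45.6 and 467 CPM, Atf3 at 16.1 and 153 CPM, and the heat shock gene Hspa1a, whose copy Hspa1b makes unique reads uncertain, at 2.14 and 33.5 CPM. Ier3 was the member lower in spleen, at 46.9 and 17.0 CPM. These genes moved with the macrophage and MHC class II genes, and their part in those differences was not tested.

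Secreted factors were few and mixed. Of 20 chemokine ligands 8 were measured, 4 higher and 2 lower in spleen (median 1.39, or -1.31 against the core median). The lower ones were Ccl9, at 102 and 34.7 CPM, and Ccl3, at 67.5 and 25.5 CPM. Cxcl12, the stromal ligand that retains progenitors in the marrow, was at 8.97 CPM in bone marrow and 0.445 CPM in spleen, under the minimum. Of 14 chemokine receptors, all measured, 6 were higher and 2 lower (median 0.66, or -2.04 against the core median). Ccr3, the eotaxin receptor known from eosinophils, was at 5.40 and 348 CPM, 64.4-fold (49.1 to 86.2) higher in spleen. Of the 8 measured eosinophil genes, 3 with Ccr3 among them were higher in spleen and 5 went the other way. The B cell homing receptor gene Cxcr5 was 33.9-fold (24.5 to 48.1) higher, and Ccr6, which B cells carry too, 41.1-fold (22.1 to 86.4) higher. Cxcr2 and Ccr1, receptors of neutrophils and monocytes, were 11.8-fold (8.66 to 16.4) and 8.27-fold (5.66 to 12.5) higher in bone marrow.

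Among cytokines and growth factors, 14 of 20 were measured, 6 were higher and 4 lower in spleen, with a median of 0.78 (-1.92 against the core median). Igf1, a growth factor made by resident macrophages, was at 4.49 CPM in bone marrow and 111 CPM in spleen, 24.7-fold (18.2 to 34.2) higher, and Il18 was 16.2-fold (11.5 to 23.3) higher. The lower members were Vegfa, the vascular growth factor, at 71.8 and 6.35 CPM, Tnfsf13b, the B cell survival factor BAFF, at 24.5 and 1.89 CPM, Csf1, the ligand of the receptor encoded by Csf1r, at 44.9 and 9.47 CPM, and Hgf at 26.3 and 7.46 CPM. Receptor and ligand of this axis thus had opposite orders, with Csf1r higher in spleen and Csf1 4.74-fold (3.75 to 6.05) higher in bone marrow.

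Adhesion genes went both ways. Of 24 measured of 25, 11 were higher and 6 lower in spleen (median 0.84, or -1.86 against the core median). Beside Itgad and Vcam1, Itga9 was 23.1-fold (18.9 to 28.7) higher, Itgb5, which pairs with the alpha-v chain in uptake of dying cells, 11.8-fold (10.2 to 13.8) higher and Icam1 8.94-fold (7.91 to 10.1) higher. Lower in spleen, beside Itgam, were Itgb2l, at 310.1 and 3.90 CPM, the platelet chain Itga2b, at 237 and 7.80 CPM, P-selectin (Selp), at 17.9 and 0.891 CPM, and Itga5 and Itga6. The subunits of the phagocyte NADPH oxidase, which macrophages and neutrophils share, differed little: 6 of 7 were under 2-fold, Cybb was at 1250.2 and 777 CPM, and Ncf1 was 2.93-fold (2.79 to 3.07) higher in bone marrow.

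Among 42 transcription factors of blood lineages, all measured, 20 were higher and 11 lower in spleen, with a median of 0.87 (-1.83 against the core median). Those with high folds towards spleen included Spic and Nr1h3, named above, with Relb, of the alternative NF-kappaB pathway, at 13.3 and 236 CPM, and Maf, at 12.03 and 162 CPM. The lowest log2 folds were those of Cebpe, which directs the late steps of granulocyte formation, at 203 and 2.78 CPM, and of Gata2, a factor of progenitors and mast cells, at 254 and 10.7 CPM. Hoxa9, of stem cells and progenitors, had 236 reads in bone marrow and 2 in spleen, 108-fold (29.6 to 897) higher in bone marrow. Myb, which drives progenitor growth, was at 594 and 49.2 CPM, Gfi1, a repressor needed for granulocyte formation, at 126 and 11.7 CPM, and Cebpa at 168 and 51.8 CPM. Sfpi1, which encodes PU.1 and serves both macrophages and granulocytes, was at 252 and 305 CPM, a log2 fold of 0.28.

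On the bone marrow side, neutrophil genes had the lowest log2 folds of the comparison. Of 14 genes of neutrophil precursors 13 were lower in spleen and none higher, with a median of -5.86. Elane, neutrophil elastase, was at 2089 CPM in bone marrow and 7.13 CPM in spleen, 293-fold (229 to 381) higher in bone marrow. Mpo, myeloperoxidase, was at 9947 and 50.4 CPM, 197-fold (179.8 to 217) higher, Prtn3, proteinase 3, 151-fold (124 to 186) higher and Ctsg, cathepsin G, 152-fold (115 to 206) higher. Ms4a3, a marker of granulocyte and monocyte progenitors, was at 389 and 2.12 CPM, and the ficolin gene Fcnb at 715 and 7.24 CPM. Fcna and Fcnb, a pair of ficolin genes, therefore had opposite orders between the organs, Fcna towards spleen and Fcnb 98.8-fold (77.4 to 128) towards bone marrow. Igsf6 was the precursor gene under 2-fold, at 320.0 and 247 CPM.

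Genes of late granules and mature neutrophils were lower in spleen in 16 of 16 measured of 17, with a median of -5.12. Ngp was at 10188 CPM in bone marrow and 148 CPM in spleen, Ltf, lactoferrin, at 5654 and 90.8 CPM, and Camp, cathelicidin, at 3891 and 45.9 CPM, 84.8-fold (76.9 to 93.7) higher in bone marrow. S100a8 and S100a9, the calprotectin pair of the neutrophil cytosol, were 72.8-fold (67.6 to 78.5) and 71.8-fold (67.8 to 76.1) higher in bone marrow. Csf3r, the receptor for granulocyte colony-stimulating factor, had the log2 fold of the list nearest to 0, at 246 and 84.4 CPM.

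Most genes of other precursors and granulocytes were lower in spleen as well. All 8 basophil and mast cell genes were lower, with a median of -5.05, led by the proteases Prss34, at 1419 and 13.03 CPM, 109-fold (90.8 to 132) higher in bone marrow, and Mcpt8, 105-fold (80.0 to 142) higher. Eosinophil genes were lower in 5 of 8 measured of 9, with Epx, eosinophil peroxidase, 115-fold (69.4 to 205) higher and Prg2, major basic protein, 60.6-fold (48.2 to 77.4) higher in bone marrow. Their 3 members higher in spleen were Ccr3, the interleukin 5 receptor gene Il5ra, at 5.50 and 13.9 CPM, and Ear2, at 14.1 and 75.4 CPM, whose near copies make its reads uncertain. Progenitor genes were lower in 9 of 10 measured of 12, with a median of -3.95. Cd34 was at 248 and 4.57 CPM and Erg, a factor of stem cells and endothelium, at 75.2 and 1.11 CPM. Kit, the stem cell factor receptor, was at 282 and 156 CPM and stayed under 2-fold. All 3 measured megakaryocyte genes of 8 were lower, with Pf4, platelet factor 4, at 38.6 and 1.00 CPM.

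B cell precursor genes had the opposite order to those of mature B cells, with 5 of 6 measured of 8 lower in spleen and none higher. Their median was -3.87, and it was the same with the member at 0 reads set at its bound. Igll1, part of the surrogate light chain, had 554 reads (56.5 CPM) in bone marrow and 0 in spleen, at least 169-fold higher in bone marrow when the spleen is given the 3 reads that a count of 0 allows. Vpreb1, its partner chain, had 331 reads and 1. Rag1, of antigen receptor recombination, was at 26.4 and 1.78 CPM, and Dntt at 63.9 and 2.005 CPM. Only 3 of 15 genes of stroma and endothelium were measured. The type I collagen genes Col1a1 and Col1a2 were lower in spleen, with 270 reads in bone marrow against 0 and 210 against 2, and the endothelial and leukocyte gene Pecam1 was higher, at 100.2 and 229 CPM. Erythroid genes were mixed, with 6 of 16 measured of 21 higher, 4 lower and a median of -0.32. The haemoglobin gene Hba-a1 was at 7.03 and 23.2 CPM and the erythroid factor gene Gata1 at 33.2 and 8.69 CPM, so that haemoglobin, whose copies share reads, and its transcription factor had opposite orders.

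**Figure D4:**
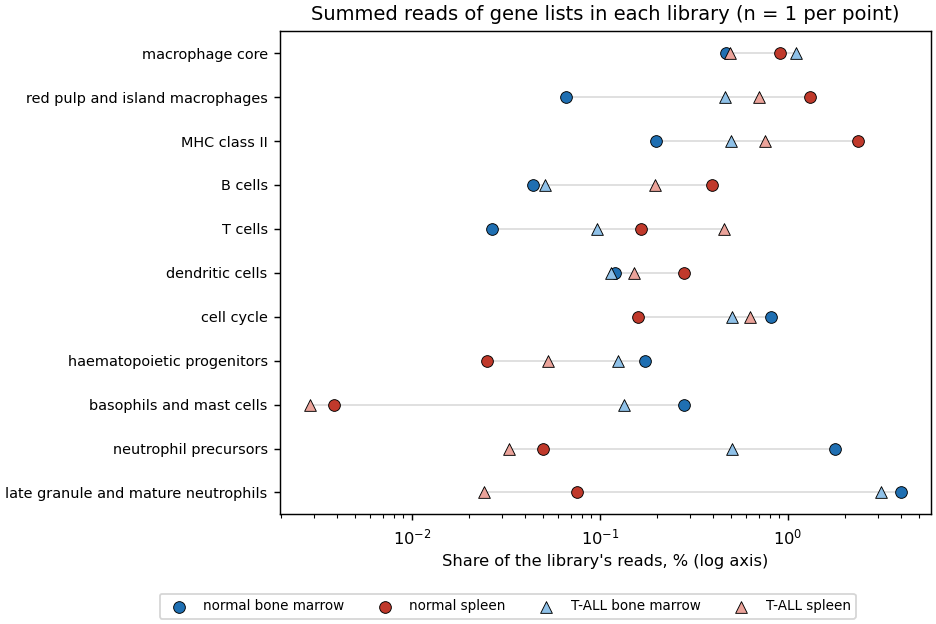
Share of each library's reads taken by the summed members of 11 gene lists (percent, log axis), with 1 library per symbol, circles for the normal libraries and triangles for the T-ALL libraries. In the normal pair the late neutrophil list runs from 3.99% in bone marrow to 0.0758% in spleen, and the MHC class II list from 0.198% to 2.36%.

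The bone marrow library had the higher levels of proliferation genes. All 28 cell cycle genes were lower in spleen, with log2 folds in the narrow range from -3.24 to -1.50 and a median of -2.46. Top2a, a topoisomerase of dividing cells, was at 983 CPM in bone marrow and 144 CPM in spleen, 6.81-fold (6.42 to 7.22) higher in bone marrow, Mki67, the proliferation antigen Ki-67, 4.90-fold (4.65 to 5.16) higher, and Rrm2, of nucleotide synthesis, 7.71-fold (6.997 to 8.52) higher. The mitotic kinase gene Cdk1 was at 138 and 18.3 CPM and the helicase gene Mcm6 at 604 and 124 CPM. Granulocyte precursor and progenitor genes moved the same way, and their part in this difference was not tested.

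Energy metabolism differed by pathway. Glycolysis genes were lower in spleen in 12 of 17 and higher in none, with a median of -1.29. Gpi1, glucose-6-phosphate isomerase, was at 1615 and 491 CPM, 3.29-fold (3.18 to 3.40) higher in bone marrow, Pkm, pyruvate kinase, 3.11-fold (3.01 to 3.21) higher and Pgam1 4.35-fold (4.07 to 4.65) higher. Hk3, a hexokinase of myeloid cells that is also on the neutrophil precursor list, had the largest fold. The median of 20 oxidative phosphorylation genes was -0.41, with only Ndufa4 past 2-fold, at 120.4 and 56.5 CPM. The 32 ribosomal protein genes had a median of 0.00, and all lay within -0.26 and 0.35. Against the core median, these medians became -3.99, -3.11 and -2.70.

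The 12 named genes with the highest log2 folds, symbols that are only clone names left aside, held several that belong to no list above. Adam23, a membrane protein of the ADAM family without protease activity, was at 0.816 CPM in bone marrow and 179.7 CPM in spleen, 220.4-fold (112 to 511) higher. Adamdec1, a secreted relative known from macrophages and dendritic cells, was 184-fold (92.9 to 426) higher. Kcnj16, a potassium channel subunit, had 4 reads in bone marrow and 772 in spleen. Dtx1, a ubiquitin ligase and target of Notch signalling, was at 3.57 and 319 CPM, Sema6d, a transmembrane semaphorin, at 2.14 and 192 CPM, and Abcc3, an efflux pump, at 4.28 and 307 CPM. With Cr2, C6, Clec4n, Itgad, Ccr3 and Mertk they complete the 12. The 12 genes with the lowest log2 folds were all on the granulocyte, basophil or eosinophil lists, and all are named above.

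The organ pair of the T-ALL mice held fewer differences past 2-fold than the normal pair. In that pair 9857 genes were measured, 562 (5.7%) were higher in spleen and 1056 (10.7%) lower. Of the 1600 genes higher in normal spleen, 305 (19.1%, and 54.3% of the 562) were also higher in T-ALL spleen, 101 (6.31%) were lower, 993 were under 2-fold and 201 were not measured. Of the 1436 genes lower in normal spleen, 511 (35.6%, and 48.4% of the 1056) were also lower in T-ALL spleen, 43 (2.99%) were higher, 792 were under 2-fold and 90 were not measured. The median log2 fold of the 1600 was 1.89 in the normal pair, which the rule that chose them fixes, and 0.22 in the T-ALL pair. That of the 1436 was -1.75 in the normal pair and -0.53 in the T-ALL pair. Whether the organ difference itself differs between the pairs was not tested, as each group has 1 library.

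**Figure D5:**
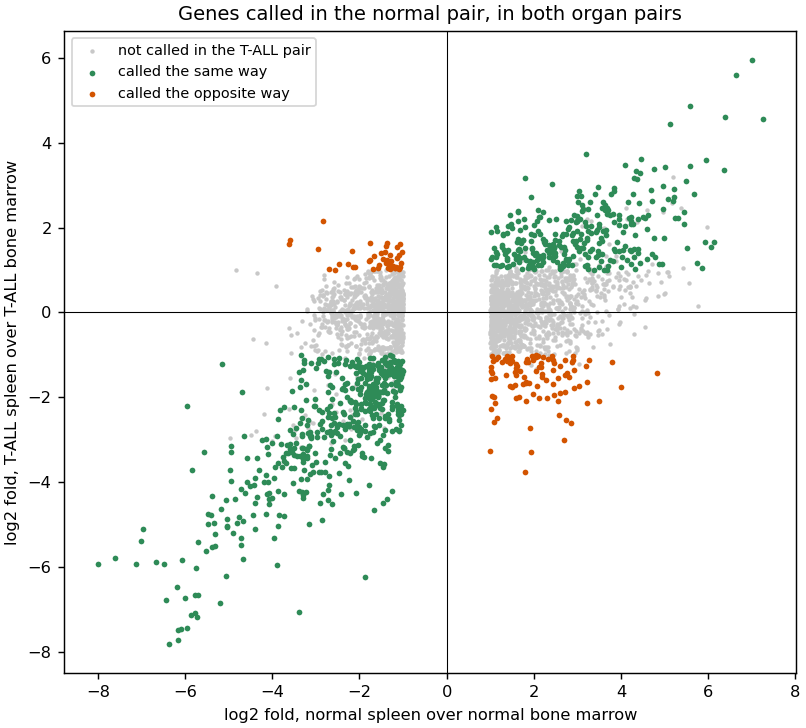
Log2 folds of spleen over bone marrow in the normal pair (horizontal axis) and in the T-ALL pair (vertical axis) for the genes called in the normal pair, on the log2(CPM + 1) scale, 1 library per group. Green points (305 at the upper right and 511 at the lower left) were called the same way in both pairs and orange points (101 and 43) the opposite way; the empty band in the middle is set by the 2-fold rule.

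The neutrophil lists kept their order in the T-ALL pair. Precursor genes were lower in T-ALL spleen in 13 of 14 (median -5.15) and late neutrophil genes in 16 of 16 (median -6.95). Mpo was at 2509 CPM in the marrow and 44.4 CPM in the spleen of T-ALL mice, 56.5-fold (51.2 to 62.4) higher in bone marrow, and Camp at 2284 and 9.28 CPM, 246-fold (199 to 308) higher. All 7 measured basophil and mast cell genes were again lower in spleen.

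The macrophage and class II lists lay closer together in the T-ALL organs. Of 18 red pulp and island genes, 3 were higher and 2 lower, with a median of 0.64 against 4.47 in the normal pair. Hmox1 was at 506 CPM in the marrow and 699 CPM in the spleen of T-ALL mice, both between its normal bone marrow and normal spleen values. Csf1r was at 939 and 1433 CPM, which also lie between the normal values of 134 and 2405 CPM. Of the MHC class II genes 5 of 12 were higher, the median being 0.56, and Cd74 was at 2330.3 and 3699.8 CPM. The core macrophage genes were higher in T-ALL spleen in 1 of 16 and lower in 5, with a median of -0.39. Lyz2, at 5447 and 243 CPM, was 22.4-fold (21.5 to 23.4) higher in T-ALL bone marrow, against 2.74-fold in the normal pair.

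The cell cycle list, lower throughout in normal spleen, held no member past 2-fold in the T-ALL pair, with a median of 0.36. Top2a was at 593 CPM in the marrow and 739.9 CPM in the spleen of T-ALL mice. T cell genes, which leukaemia cells of the T lineage also express, were higher in T-ALL spleen in 19 of 19 (median 2.19), and B cell genes in 10 of 13 (median 1.59). The genes at the very top of the normal comparison were higher in T-ALL spleen too, with C6 at 0.638 and 99.2 CPM, Adam23 at 1.17 and 104 CPM and Adamdec1 at 2.98 and 96.3 CPM. Ccr3 was the exception among the 12, at 78.4 and 87.0 CPM, a log2 fold of 0.15.

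Sex-linked transcripts were alike in the normal pair, while Xist differed in the T-ALL pair. Xist, the RNA that coats an inactive X chromosome, was at 865 CPM in the marrow and 845 CPM in the spleen of normal mice, and at 0.638 and 419.9 CPM in the same organs of T-ALL mice. The Y-linked Ddx3y and Kdm5d had no read in either normal library, where a count of 0 still allows 3, and Eif2s3y and Uty at most 1. In T-ALL bone marrow and spleen Ddx3y had 874 and 532 reads. Of the 5 transcripts, all measured in that pair, only Xist passed 2-fold. The normal libraries thus share a sex pattern and the T-ALL libraries do not, and the part of sex in the difference between the pairs was not tested.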

How the data were processed

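Per the labels' protocols, total RNA of sorted macrophages was taken up with Qiagen RNeasy columns, and libraries followed Illumina's routine protocol. The deposited files give, per the file headers, uniquely mapped read counts per gene and an RPKM value that the authors made from them. The RPKM could be recomputed from the counts to within 9.2e-06%. The sources used here do not give the aligner, counting rule, strand setting or build. Symbols turned into dates by a spreadsheet (23) were restored through their Gene IDs, and 16951 of 17008 IDs were in RefSeq's gene table (GRCm38.p6). Older symbols were kept as the files give them (Emr1, Chi3l3, Igj, Sfpi1).

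CPM, ratios and shares (Wilson 95% intervals) were computed with Python 3.11.15, pandas 2.3.3, numpy 2.4.6 and scipy 1.17.1, TMM factors with edgeR 4.0.16 in R 4.3.3, and plots with matplotlib 3.10.9. A gene without a line in a file was set to 0 reads, and the floor for a count of 0 was 3 reads. The steps were checked on simulated counts that held counting error only, so the check says nothing of the spread between libraries. Reads of near-identical genes (H2, Ear, Clec4a, haemoglobin, Hspa1a and Hspa1b) and of overlapping genes on opposite strands cannot be told apart.

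The comparison, the 43 gene lists and their 688 symbols were chosen with earlier results of these data known; 4 symbols had no reads. Lists share members. The genes named were the 12 highest and 12 lowest log2 folds, and in each list up to 6 members by log2 fold, up to 3 by level and all members against the list's main direction. Added to these were the 10 genes in each direction with the widest opposite difference between the organ pairs, and the sex-linked genes. Other genes were named after their values were seen. Alternatives were other scalings (TMM, median of ratios, total without genes of other cells, macrophage core median), pseudocounts of 0.1 and 5 CPM, other minimums and thresholds, and the deposited RPKM.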

Additional observations from a re-analysis of the deposited data

Results flagged for a closer look

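A set of 20 genes had opposite organ differences in normal and T-ALL mice, 10 in each direction, chosen as those with the widest gap between the pairs. On the library scale each passed 2-fold in both pairs, in opposite directions, as the rule that chose them requires. The difference between the pairs was not tested, since each group has 1 library. Values are log2 folds of spleen over bone marrow, first for the normal pair and then for the T-ALL pair.

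The first 10 were higher in normal spleen and lower in T-ALL spleen. Cd163, the haemoglobin scavenger receptor, went from 4.01 to -1.75, and Siglec1, the sialic acid lectin CD169, from 3.23 to -2.12. In CPM, Cd163 was at 18.2 in normal bone marrow and 309 in normal spleen, and at 156 and 45.6 in the T-ALL organs. Siglec1 was at 15.2 and 150.5 CPM in the normal organs and 167 and 37.6 CPM in the T-ALL organs, so that T-ALL bone marrow lay close to normal spleen. The collagen gene Col14a1 went from 4.82 to -1.43 and the lipid transporter gene Abca9 from 2.68 to -3.00. S1pr5, a receptor for sphingosine-1-phosphate, went from 3.49 to -2.08. The lectin gene Cd209a went from 1.79 to -3.76 and the nucleotide receptor gene P2ry6 from 1.92 to -3.29. Il13ra1, a receptor chain for interleukins 4 and 13, went from 2.85 to -2.61, the membrane protease gene Adam8 from 2.75 to -2.53 and the cytochrome gene Cyp2ab1 from 2.57 to -2.41. With folds set against the core median, the normal-pair folds became -0.91 for Cd209a, -0.78 for P2ry6, -0.13 for Cyp2ab1 and -0.02 for Abca9. The normal-pair folds of the other genes in this direction also became smaller.

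The other 10 were lower in normal spleen and higher in T-ALL spleen. Bcat1, which breaks down branched amino acids, went from -2.84 to 2.15, and Egln3, a prolyl hydroxylase of the oxygen-sensing pathway, from -3.60 to 1.71. Shmt1, of one-carbon metabolism, went from -2.70 to 1.02, Ldhb, lactate dehydrogenase B, from -2.57 to 1.01, and Dut, which clears dUTP, from -2.27 to 1.15. Smo, the Hedgehog signal transducer, went from -2.94 to 1.49, and the receptor genes Gfra1 and Tnfrsf19 from -3.61 to 1.60 and from -2.48 to 1.13. Gfra1 was at 12.5 and 0.111 CPM in the normal organs and at 17.0 and 53.7 CPM in the T-ALL organs. Its normal spleen value rests on 1 read, so its ratio of 113-fold (19.8 to 4483) towards normal bone marrow has a wide interval. Ccdc18 went from -2.18 to 1.45 and Mex3a, an RNA-binding protein gene, from -2.14 to 1.08.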

How the results depend on the processing

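With 1 library per group there was no replicate to leave out, and the counting intervals say nothing of the spread between animals. No paired analysis was possible because each group has 1 library. At these depths a count of 0 allows 0.306 CPM in bone marrow and 0.334 CPM in spleen.

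Without a minimum, 473 genes were higher and 823 lower in spleen in both pairs. With a minimum of 50 CPM, 953 genes were higher and 800.0 lower in normal spleen, and 151 and 232 in both pairs. A 1.5-fold threshold gave 2431 and 2524 genes, and 559 and 825 in both pairs. A 4-fold threshold gave 735 and 590.0, and 95 and 249 in both pairs. When folds were set against the macrophage core median, 162 genes were higher and 9167 lower, 110 were higher in both pairs, 4 macrophage core genes and 3 MHC class II genes were higher, and 13 of 18 red pulp and island genes were higher. Of the named genes past 2-fold, those that changed sign in this setting had log2 folds of -0.17 for Cd14, -0.80 for Cx3cr1, -0.36 for Ear2, -1.39 for H2-K1, -1.11 for Hba-a1, -0.23 for Hspa1b, -1.01 for Irf8, -1.50 for Il5ra, -1.52 for Pecam1, -0.61 for Psap, -0.91 for Cd209a, -0.02 for Abca9, -0.13 for Cyp2ab1 and -0.78 for P2ry6. The shift follows from the setting, which subtracts each pair's own core median from every gene's log2 fold. That median was 2.70 in the normal pair and -0.39 in the T-ALL pair. In this setting 653 genes were lower in both pairs, and 14 neutrophil precursor genes were lower in normal spleen.

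In the other settings, with the core median setting left out, each of these counts stayed within 1.5 times its main value. There were 1411 to 2174 genes higher and 1240.0 to 1947 lower in normal spleen. In both pairs, 251 to 319 genes were higher and 420.0 to 550 lower. The members counted were 10 to 12 core genes, 11 to 12 class II genes, 13 neutrophil precursor genes and 25 to 28 cell cycle genes. These settings include the count without genes of other cells and sex-linked genes, chosen after seeing the data, and a scaling total without genes of other cells, which took 6.83% of reads in normal bone marrow and 1.43% in normal spleen. No named gene past 2-fold changed sign in them.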

Other observations

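Some genes reached 10 CPM in 1 normal library and had at most 3 reads in the other. Among the 10072 measured genes there were 28 of them in spleen and 35 in bone marrow. These became 25 and 33 when antigen receptor segments, clone names and the like are left out. Those at 0 reads in bone marrow were Hs3st2, a heparan sulfate sulfotransferase, with 423 reads in spleen (at least 154-fold higher, with 3 reads allowed for the 0), Mmp12, macrophage elastase, with 375 (at least 137-fold), the sodium and calcium exchanger gene Slc8a2 with 271 (at least 98.7-fold), and Pcolce2, which aids collagen processing, with 185 (at least 67.4-fold). Lta, lymphotoxin alpha, had 1 read in bone marrow and 163 in spleen, and Ctla4, an inhibitory receptor of T cells, had 3 and 90. Those at 0 reads in spleen were Igll1 and Col1a1, described above, with Orm1, an acute-phase protein, at 250 reads in bone marrow (at least 76.3-fold higher), the aminopeptidase gene Enpep at 162 (at least 49.4-fold) and Ccdc135 at 108 (at least 33.0-fold).

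In the T-ALL libraries, 11 of the 28 spleen genes again reached 10 CPM in spleen, and 1 of these also had 3 reads or fewer in bone marrow. Of the 35 bone marrow genes, 21 again reached 10 CPM in bone marrow, and 15 of these had 3 reads or fewer in spleen. The same was not counted over all measured genes, so these counts have no share to be set against. Hs3st2 was at 0.745 CPM in the marrow and 49.7 CPM in the spleen of T-ALL mice, close to its normal spleen level of 47.1 CPM. Mmp12 was at 0.851 and 2.84 CPM, well under its normal spleen level of 41.8 CPM. These genes were selected for their pattern in the normal pair, so that only the T-ALL values are independent of the choice.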
